A study of Mus musculus with 6 samples.

Results

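Gas5, Snhg1, Snhg3, Snhg6, Snhg8 and Snhg12 are long non-coding RNA genes whose introns carry small nucleolar RNAs (snoRNAs). They were taken by gene symbol as a named group, and all 6 were found among the 24411 symbols of the deposited tables. Levels were measured by RNA sequencing in C2C12, an immortalised wild-type line of mouse myoblasts that forms multinucleated myotubes in low-serum medium (the titles say myotubes, while the cell type label says myoblasts). Fully differentiated cultures received 10 µM Sardomozide dihydrochloride, an inhibitor of S-adenosylmethionine decarboxylase (a polyamine synthesis enzyme, product of Amd1), and 3 libraries were made after 72 h. The 3 control libraries came from cultures given DMSO, the solvent, for the same time. All libraries came from this line, so the comparison concerns cultured myotubes without nerve or other tissue, and nothing in the labels tells if replicates were grown apart. P-values therefore reflect the spread among these 6 libraries alone, and that spread may be technical.

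A snoRNA is a short nuclear RNA, and many snoRNAs, though not all, guide the chemical modification of ribosomal RNA. Among these guides, box C/D snoRNAs direct ribose methylation, and box H/ACA snoRNAs direct pseudouridylation. Most mammalian snoRNAs are not transcribed from promoters of their own but are cut out of the introns of a host gene, so splicing of the host releases them. The spliced host RNAs of this group code for no long protein, and several begin with a terminal oligopyrimidine tract, the short run of C and T after the cap that ties translation of ribosomal protein mRNAs to the growth signal mTORC1. Because ribosomes engage these RNAs and meet early stop codons, the spliced forms of several are known substrates of nonsense-mediated decay and can build up when translation or growth slows. Gas5 was named for that behaviour (growth arrest specific). Polyamines, the products downstream of Amd1, bind RNA and are needed for translation.

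In the GENCODE M21 annotation of GRCm38, Gas5 lies on chromosome 1 from 161034422 to 161038539, plus strand, and Snhg6 on the same chromosome from 9941959 to 9944118, minus strand. Snhg1 lies on chromosome 19 from 8723475 to 8726443, plus strand, and Snhg8 on chromosome 3 from 123507552 to 123508404, minus strand. Snhg12 (132308623 to 132311024, plus strand) and Snhg3 (132348014 to 132353686, minus strand) both lie on chromosome 4, with Trnau1ap and part of Rcc1 between them. The annotation places 27 snoRNA entries inside the 6 genes: 10 in Gas5, 8 in Snhg1, 5 in Snhg12, 2 in Snhg3 and 1 each in Snhg6 and Snhg8. One of the Gas5 entries is typed as a snoRNA under the name Mir5117, and the 27 entries have 25 distinct names. Each entry falls between the exons of the transcript drawn in the map of the 6 genes, which is the one with the most exons. The spliced transcripts are short, with 502 bases and 12 exons for the Gas5 transcript drawn, 605 bases and 10 exons for Snhg1, and 448 bases and 3 exons for Snhg8.

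**Figure D1:**
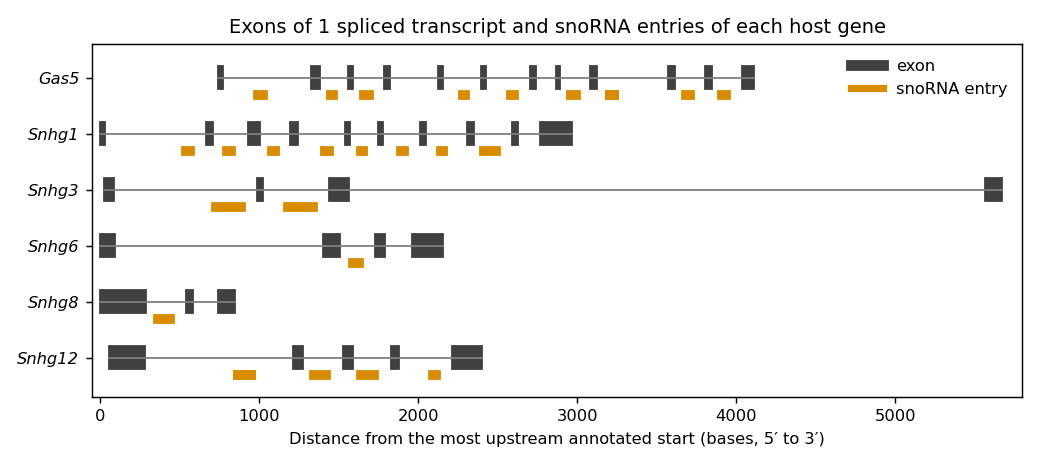
Map of the 6 host genes, drawn to scale from the most upstream annotated start of each gene (distance in bases, 5′ to 3′). Dark boxes are exons of the spliced transcript with the most exons, and orange bars below are the 27 annotated snoRNA entries (a pair in Gas5 and a pair in Snhg12 coincide), which fall in the introns: Gas5 and Snhg1 hold 10 and 8 of them.

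The snoRNAs that the introns release are shown for 5 of the 8 that have a row of their own in the count tables, because they are what sets this class of gene apart. In the C/D snoRNAs the capitals mark box C (TGATGA) near the 5′ end and box D (CTGA) near the 3′ end. In the H/ACA snoRNAs they mark the ACA close to the 3′ end. Among those not shown, Snora16a of Snhg12 had this ACA, but the letters were not all found in the others. Snord22 of Snhg1 had CTGA but no TGATGA near its 5′ end, and Snora44 of Snhg12 had no ACA close to its 3′ end. The letters come from the GENCODE M21 transcripts, in DNA letters and 5′ to 3′.
Snord47 of Gas5, chr1:161038082-161038158 (+ strand): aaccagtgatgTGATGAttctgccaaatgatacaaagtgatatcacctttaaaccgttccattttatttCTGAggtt
Snord87 of Snhg6, chr1:9942463-9942549 (- strand): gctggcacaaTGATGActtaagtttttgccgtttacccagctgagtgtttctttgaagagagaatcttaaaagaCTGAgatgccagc
Snord99 of Snhg12, chr4:132310691-132310764 (+ strand): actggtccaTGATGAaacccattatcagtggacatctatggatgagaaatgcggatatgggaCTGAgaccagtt
Snora24 of Snhg8, chr3:123507937-123508066 (- strand): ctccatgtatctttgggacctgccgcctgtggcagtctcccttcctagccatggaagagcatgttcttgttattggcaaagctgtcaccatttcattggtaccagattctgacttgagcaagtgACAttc
Snora61 of Snhg12, chr4:132310240-132310369 (+ strand): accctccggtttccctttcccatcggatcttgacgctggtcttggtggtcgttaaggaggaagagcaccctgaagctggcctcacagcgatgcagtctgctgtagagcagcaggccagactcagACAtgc
The 8 rows were close to empty. Their summed counts were 24, 26 and 33 in the Sardomozide libraries and 21, 33 and 20 in the DMSO libraries, the highest single value was 15, and Snora24 had 0 counts in all 6. None of the 8 passed the filter on low counts, so the snoRNAs themselves were not compared. All entries other than Snord87 and Snora73b also overlap an exon of another annotated transcript of their host, and to which row such reads were given is not stated.

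RefSeq start windows (GRCm38.p6) were found for 5 of the 6 genes, and the bases around the start are shown because the pyrimidine tract at the cap is a known mark of this gene class. Each window runs from 45 bases before the annotated start to 24 bases beyond the start base. Capitals mark the letters TATA where they begin 40 to 20 bases before the start, and a run of at least 5 C or T that begins with C within 5 bases of the start. For Gas5, which has several annotated starts, the window whose start lies within 5 bases of that of 9 GENCODE transcripts is given. The other Gas5 window, near whose start no GENCODE transcript begins, held neither feature, its longest C-led run being 3 bases. Fewer GENCODE transcripts begin within 5 bases of the other starts shown: 5 for Snhg12, 2 for Snhg1 and 1 each for Snhg3 and Snhg8.
Gas5, chr1:161035121-161035190 (+ strand): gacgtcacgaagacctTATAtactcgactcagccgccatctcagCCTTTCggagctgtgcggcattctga
Snhg1, chr19:8723442-8723511 (+ strand): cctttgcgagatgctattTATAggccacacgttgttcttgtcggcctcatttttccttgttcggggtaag
Snhg3, chr4:132353662-132353731 (- strand): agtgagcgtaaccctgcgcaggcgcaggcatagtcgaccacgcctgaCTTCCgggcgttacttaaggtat
Snhg8, chr3:123508312-123508381 (- strand): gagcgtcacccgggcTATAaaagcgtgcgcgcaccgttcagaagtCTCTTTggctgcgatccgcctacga
Snhg12, chr4:132308633-132308702 (+ strand): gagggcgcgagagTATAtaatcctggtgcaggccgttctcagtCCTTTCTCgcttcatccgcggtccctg
In the windows shown, a C-led run began within 5 bases of the start in Gas5, Snhg3, Snhg8 and Snhg12, and the longest was that of Snhg12 (CCTTTCTC, 8 bases). The run of Snhg3 began 2 bases after the start base. In Snhg1 the longest such run had 4 bases (CCTC), under the minimum. Over all 32851 start windows of the same length, 18.3% held such a run. The letters TATA, which read the same on both strands, began at positions −29, −27, −30 and −32 from the start in Gas5, Snhg1, Snhg8 and Snhg12 and were not found there in Snhg3. Of all windows 5.81% held TATA at that distance, and 1.08% held both features. These matches describe letters and do not show a binding site or a cap.

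Library totals were 30820423 to 36709804 counts with Sardomozide and 25496323 to 32108033 with DMSO. Myotube markers were abundant in both groups (7 of 8 listed markers had a row, with summed levels of 13400 to 14600 CPM in Sardomozide libraries and 12930 to 14060 CPM in DMSO libraries, CPM being read counts divided by the library total and put on a common scale, here without TMM factors). Of these 7 markers Myog rose and Myh8 fell (log2 fold changes 0.24 and −0.63, edgeR adjusted p = 0.000547 and 1.2e-06). The 6 myoblast and cycling markers summed to 358 to 399 CPM with Sardomozide and 333 to 352 with DMSO, and 1 of them, Mki67, rose (edgeR adjusted p = 0.0443). Their part in the results on the host genes was not tested. Markers of other lineages were near 0, with no more than 75 counts for any of 8 genes, and Ptprc and Adipoq at 0 in every library. Replicates differed by more than sampling noise, and the Sardomozide pairs that include replicate 2 differed most (chi-square per degree of freedom 16.1 and 13.1, against 9.06 for the remaining Sardomozide pair and 5.45 to 6.88 for DMSO pairs).

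None of the 6 host genes passed the test for a difference between Sardomozide and DMSO myotubes. All 6 passed the filter on low counts. In edgeR's quasi-likelihood fit, with p-values adjusted over 13076 genes by the Benjamini-Hochberg method, 0 of 6 were called at an adjusted p under 0.05, whereas 16.3% of all tested genes were called (7.88% higher, 8.45% lower). Snhg1 alone had an unadjusted p under 0.05, against 29.6% of all tested genes, and DESeq2 and limma-voom also called 0 of 6, with Snhg1 again the 1 gene under 0.05 before adjustment. The estimates were small and of either sign: 3 lay above 0 and 3 below, from −0.27 to 0.18 on the log2 scale, with a median of −0.09 beside −0.0008 over all tested genes. Summed over the 6 genes, the level was 76.3, 63.3 and 79.7 CPM (here and for all levels that follow, with library totals scaled by TMM) in Sardomozide libraries 1, 2 and 3 and 74.3, 77.0 and 72.8 CPM in the DMSO libraries. The sums of the groups overlapped. In bulk RNA, fewer expressing cells and less RNA per cell cannot be told apart, nor do gene counts separate spliced host RNA from transcripts that keep an intron.

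**Figure D2:**
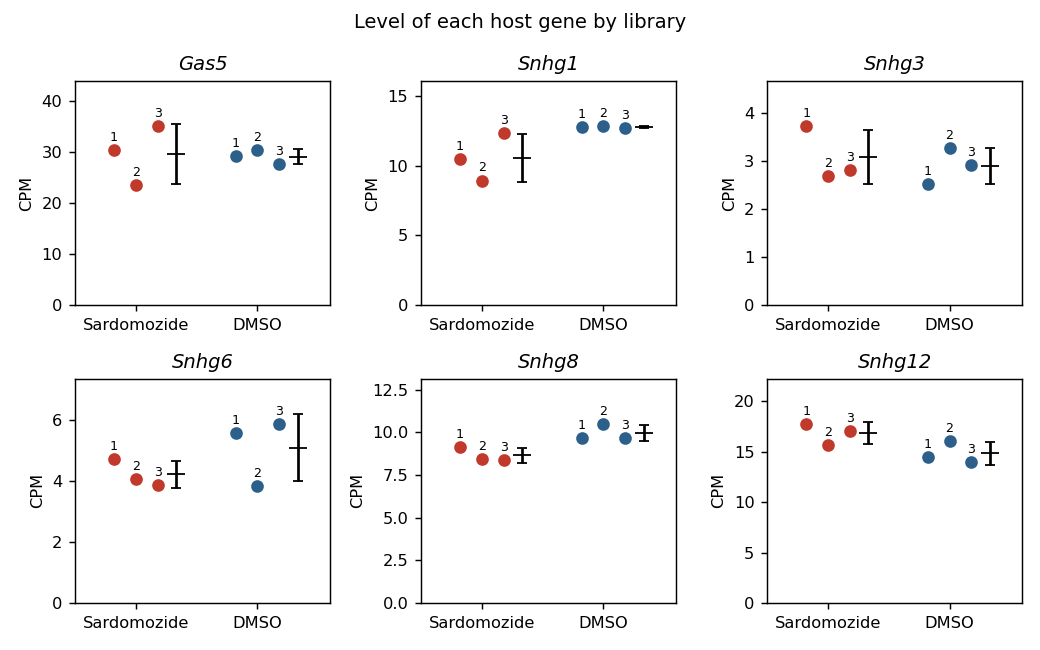
Level of each host gene (CPM, vertical axis from 0) in the 3 Sardomozide and 3 DMSO libraries. Points are libraries, numbered by replicate, and the bar beside them is the mean with 1 SD over 3 libraries; Gas5 ranges from 23.5 to 35.2 CPM with Sardomozide, around the DMSO values of 27.7 to 30.4.

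Gas5, host of the largest number of snoRNAs here and the classical RNA of growth arrest, had 30.4, 23.5 and 35.2 CPM in Sardomozide libraries 1, 2 and 3, against 29.4, 30.4 and 27.7 CPM in DMSO libraries 1, 2 and 3. The Sardomozide values enclosed all DMSO values. Its means were 29.7 ± 5.85 CPM with Sardomozide and 29.2 ± 1.40 CPM with DMSO (SD, n = 3 each), with a log2 fold change of 0.03 ± 0.13 (SE; edgeR adjusted p = 0.921). The 95% interval ran from −16.5% to 24.0%. Gas5 is the best counted of the group (746 to 1109 counts per library), and counting error alone would give a coefficient of variation of 3.15% among Sardomozide libraries, where 19.7% was measured, and 3.43% among DMSO libraries, where 4.79% was measured. The direction of its estimate was set by single libraries: it was −0.11 without Sardomozide replicate 3, −0.01 without DMSO replicate 3 and 0.17 without Sardomozide replicate 2 (edgeR adjusted p = 0.509, 0.978 and 0.18). Zbtb37, which encodes a zinc finger protein, starts in the opposite direction and overlaps Gas5 by 428 bases, was not called (log2 fold change −0.26, edgeR adjusted p = 0.233).

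Snhg1, the host of Snord22 and 7 other entries, came closest to a call. It had 10.4, 8.94 and 12.4 CPM in Sardomozide libraries 1, 2 and 3, against 12.7, 12.9 and 12.7 CPM in DMSO libraries 1, 2 and 3. Every Sardomozide library lay below every DMSO library, and 33.5% of all tested genes likewise had groups without overlap, in one direction or the other. The means were 10.6 ± 1.71 CPM with Sardomozide and 12.8 ± 0.0894 CPM with DMSO (SD, n = 3 each). The log2 fold change was −0.27 ± 0.12 (SE; edgeR unadjusted p = 0.0279, adjusted p = 0.115), with a 95% interval from −29.9% to −2.24% that is not adjusted for the number of genes. The DMSO libraries agreed more closely (coefficient of variation 0.701%) than counting error alone gives on average (5.19%), while the Sardomozide libraries spread by 16.2% where counting gives 5.29%. Without Sardomozide replicate 3 Snhg1 was called lower (log2 fold change −0.40, edgeR adjusted p = 0.0328), in a fit that called 12.5% of all genes. Without Sardomozide replicate 2 the estimate was −0.16 (edgeR adjusted p = 0.391), and over all 15 alternatives the adjusted p ran from 0.0328 to 0.391. Slc3a2, the amino acid transporter heavy chain gene that starts 106 bases away on the opposite strand, had 182 ± 7.08 CPM with Sardomozide and 173 ± 1.16 CPM with DMSO (log2 fold change 0.08, edgeR adjusted p = 0.244). Wdr74, a ribosome assembly gene on the other side, had a log2 fold change of −0.001 (edgeR adjusted p = 0.996).

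Snhg8, host of the H/ACA snoRNA Snora24, had 9.16, 8.44 and 8.36 CPM in Sardomozide libraries 1, 2 and 3, against 9.68, 10.5 and 9.69 CPM in DMSO libraries 1, 2 and 3. It was the second gene whose groups did not overlap, again with Sardomozide below DMSO. The means were 8.65 ± 0.441 CPM with Sardomozide and 9.96 ± 0.482 CPM with DMSO (SD, n = 3 each), and the log2 fold change of −0.20 ± 0.11 (SE) was not called (edgeR adjusted p = 0.232; 95% interval −26.1% to 1.98%). Its spread was close to counting error in both groups (5.09% measured against 5.83% by counting with Sardomozide, and 4.84% against 5.86% with DMSO). Over the alternatives the estimate stayed between −0.25 and −0.16. Its neighbours Prss12, a serine protease gene, and Ndst3, a heparan sulfate sulfotransferase gene, had log2 fold changes of −0.56 and −0.31 and were not called (edgeR adjusted p = 0.14 and 0.549).

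Snhg6, host of Snord87, had 4.72, 4.06 and 3.87 CPM in Sardomozide libraries 1, 2 and 3, against 5.55, 3.83 and 5.87 CPM in DMSO libraries 1, 2 and 3. DMSO replicate 2 was the lowest of all 6 and the remaining DMSO libraries were the highest. The means were 4.22 ± 0.443 CPM with Sardomozide and 5.08 ± 1.10 CPM with DMSO (SD, n = 3 each). The log2 fold change was −0.26 ± 0.18 (SE; edgeR adjusted p = 0.346; 95% interval −35.3% to 7.55%), and it ranged from −0.44 without DMSO replicate 2 (edgeR adjusted p = 0.115) to −0.14 without DMSO replicate 3 (0.727). The spread among DMSO libraries (21.6%) exceeded counting error (8.27%). Mcmdc2, a meiotic gene on the opposite strand that overlaps the end of Snhg6 by 127 bases, and Tcf24 had 0 counts in all 6 libraries.

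Snhg12, host of Snora16a, Snora44, Snora61 and Snord99, had the largest positive estimate. It had 17.8, 15.7 and 17.1 CPM in Sardomozide libraries 1, 2 and 3, against 14.4, 16.1 and 13.95 CPM in DMSO libraries 1, 2 and 3. Only Sardomozide replicate 2 and DMSO replicate 2 crossed. The means were 16.9 ± 1.09 CPM with Sardomozide and 14.8 ± 1.12 CPM with DMSO (SD, n = 3 each), with a log2 fold change of 0.18 ± 0.094 (SE) that was not called (edgeR adjusted p = 0.198; 95% interval −0.818% to 30.0%). Over the alternatives the estimate stayed between 0.14 and 0.25. Its neighbour Trnau1ap, which encodes a selenocysteine tRNA-binding protein and ends 739 bases away, had a log2 fold change of −0.04 (edgeR adjusted p = 0.829). Rab42, on the other side, had at most 10 counts in a library and was not tested.

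Snhg3, host of both copies of Snora73 (U17), was the weakest of the group, with 64 to 136 counts per library. It had 3.73, 2.69 and 2.82 CPM in Sardomozide libraries 1, 2 and 3, against 2.52, 3.27 and 2.92 CPM in DMSO libraries 1, 2 and 3. The groups overlapped throughout, with means of 3.08 ± 0.568 CPM with Sardomozide and 2.90 ± 0.375 CPM with DMSO (SD, n = 3 each). The log2 fold change was 0.08 ± 0.20 (SE; edgeR adjusted p = 0.833; 95% interval −21.1% to 42.1%), and it was −0.08 without Sardomozide replicate 1 and −0.005 without DMSO replicate 1. In the lowest library, 64 counts carry an exact Poisson 95% interval of 49.3 to 81.7 counts, which covers counting error only. The annotation of Snhg3 overlaps that of Rcc1, the chromatin-bound exchange factor gene of the GTPase Ran, by 5592 bases on the same strand, so reads from shared bases may have been left out or split. Rcc1 itself rose, with 25.05 ± 2.20 CPM with Sardomozide and 20.5 ± 0.720 CPM with DMSO (log2 fold change 0.29 ± 0.082, edgeR adjusted p = 0.0191). Leaving out Sardomozide replicate 2 or 3 ended that call (adjusted p = 0.0678 and 0.0751), and so did leaving out DMSO replicate 2 or 3 (0.051 and 0.0813). Phactr4, upstream of Snhg3, had a log2 fold change of 0.04 (edgeR adjusted p = 0.652).

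Set per length, the host RNAs kept a similar order in both groups. On CPM per kilobase of annotated exons, Snhg8 was highest with 10.1 ± 0.517 in Sardomozide libraries and 11.7 ± 0.565 in DMSO libraries (SD, n = 3 each, as for the levels that follow). Gas5 followed with 7.90 ± 1.56 and Snhg12 with 7.02 ± 0.454 in Sardomozide libraries, and with 7.75 ± 0.371 and 6.17 ± 0.467 in DMSO libraries. The Gas5 and Snhg12 levels lay within their spread of each other with Sardomozide. Snhg6, Snhg1 and Snhg3 were lowest, at 3.68 ± 0.386, 3.56 ± 0.577 and 3.12 ± 0.576 in Sardomozide libraries and at 4.43 ± 0.958, 4.30 ± 0.0301 and 2.94 ± 0.381 in DMSO libraries. Among these, neighbours differed by less than their spread with Sardomozide, and with DMSO so did Snhg6 and Snhg1. Annotated exons of Gas5 and Snhg1 include 20 and 14 transcripts with retained introns, which lengthens them to 3760 and 2969 bases. Divided by the longest annotated transcript instead, Gas5, Snhg8 and Snhg12 remained above the remaining 3 genes in both groups. Gas5 then had the highest mean with Sardomozide (11.6 ± 2.29 against 11.2 ± 0.568 for Snhg8), but these 2 lay within their spread of each other. The longest transcripts of Gas5 and Snhg1 (2556 and 2728 bases) keep introns too, and their longest spliced ones have 665 and 709 bases. Both lengths thus lower the levels of Gas5 and Snhg1. Annotated exons also cover the whole span of Snhg8 (853 bases) and Snhg12 (2402 bases), whose drawn spliced transcripts have 448 and 606 bases. Their levels per kilobase of annotated exons are therefore lowered too, and the order of the genes depends on the length chosen. Levels per spliced length were not computed.

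The 6 host genes also varied among libraries of one treatment. In Sardomozide replicate 2 all 6 host genes lay below their own mean over the 6 libraries, by 0.37 for Snhg1, 0.31 for Gas5, 0.17 for Snhg6, 0.14 for Snhg3, 0.14 for Snhg8 and 0.01 for Snhg12 on the log2 scale. Over all tested genes with a count in every library, 49.2% were below their mean in that library, with a median deviation of 0.003. In Sardomozide replicate 3 Gas5 and Snhg12 lay above their mean by 0.27 and 0.12, whereas Snhg6 and Snhg8 lay below it. Among the Sardomozide libraries, 4 of the 6 host genes were lowest in replicate 2 and 2 were highest in replicate 3, and that last share (33.3%) was near that of all tested genes (32.2%). Of 19 tested host lncRNAs, the 6 included, 11 were lowest in replicate 2 among the Sardomozide libraries and 10 highest in replicate 3, against 33.4% and 32.2% of all tested genes. These counts were made after the values were seen and carry no test. The coefficient of variation was larger with Sardomozide than with DMSO for 4 of the 6 host genes, compared with 56.9% of genes with a mean of at least 2 CPM.

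**Figure D3:**
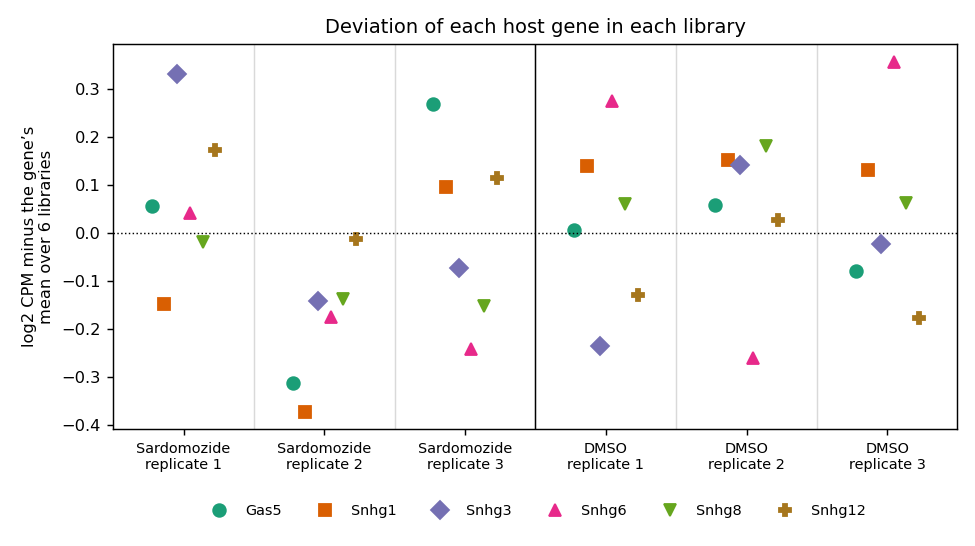
Deviation of each host gene in each library, as log2 CPM minus the mean of that gene over 6 libraries (vertical axis), with 1 symbol per gene and the 3 Sardomozide libraries left of the line. All 6 symbols lie below 0 in Sardomozide replicate 2, and no other library has all genes on 1 side.

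The genes with the most similar profile were found by the root mean square difference of centred log2 CPM over the 6 libraries. Candidates were 8935 genes with at least 10 CPM on average. The 6 host genes and genes with predicted or clone symbols (Gm, Rik and similar) were left out beforehand. Zfas1, which has a Rik symbol in the deposited counts, was thus not a candidate. The 3 closest are given for each host gene, picked from many candidates on 6 values, and shared control was not tested. For Gas5 they were Clk1, a kinase gene of splicing factors, Arglu1, a splicing coactivator gene, and E4f1 (differences of 0.06, 0.061 and 0.063). For Snhg1 they were Dtx3, Parp9 and Otog (0.046, 0.053 and 0.057), and for Snhg8 Mturn, Deptor and Mospd1 (0.021, 0.024 and 0.028). Snhg12 was closest to Ngdn, a ribosome assembly gene, Rsbn1l and Nt5dc3 (0.02, 0.02 and 0.029). Snhg3 was closest to the imprinted non-coding gene H19, Mgme1 and the fast troponin C gene Tnnc2 (0.051, 0.068 and 0.072), and Snhg6 to Lrrc61, Invs and Cnp (0.114, 0.116 and 0.116). Among the 6 host genes themselves the closest were Snhg3 and Snhg12 (0.142) and the farthest Snhg6 and Snhg12 (0.339). Of the 18 similar genes, Deptor was the only 1 called (edgeR adjusted p = 0.00193), beside 16.3% of all tested genes. The 18 were picked for likeness to genes that were not called, the group difference included. Their number of calls therefore carries no weight.

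Among other lncRNAs that host snoRNAs, Snhg15 and Epb41l4aos rose with Sardomozide. The other 11 of the 13 tested did not pass, none fell, and the median log2 fold change of the list was −0.04. Of all tested genes 16.3% were called and 7.88% rose, so the number called in this list was close to the background. Snhg15, listed in the tables under its older symbol Gm11974, had 8.03, 8.88 and 8.77 CPM in Sardomozide libraries 1, 2 and 3, against 4.88, 5.63 and 6.54 CPM in DMSO libraries 1, 2 and 3. It rose without overlap (8.56 ± 0.460 CPM with Sardomozide, 5.68 ± 0.832 CPM with DMSO, SD, n = 3 each; log2 fold change 0.59 ± 0.13, edgeR adjusted p = 0.00475). Epb41l4aos, listed as Epb4.1l4aos and antisense to a membrane skeleton gene, had 3.95, 3.30 and 4.19 CPM in Sardomozide libraries 1, 2 and 3, against 2.40, 2.15 and 2.35 CPM in DMSO libraries 1, 2 and 3. It rose too (log2 fold change 0.73 ± 0.19, edgeR adjusted p = 0.0128), without overlap between the groups, but its call depended on Sardomozide replicate 3 (adjusted p without it 0.0537) and DMSO replicate 2 (0.0514). Whether reads of the opposite strand were kept apart is not given in the sources used here. Both estimates were larger in size than any among the 6, and that difference was not tested.

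The more abundant of the remaining host lncRNAs did not pass the test. Zfas1, which is listed as 1500012F01Rik, had 22.5 ± 3.51 CPM with Sardomozide and 22.0 ± 0.977 CPM with DMSO (log2 fold change 0.04 ± 0.097, edgeR adjusted p = 0.851). Snhg5 had 14.97 ± 2.35 CPM with Sardomozide and 16.5 ± 1.38 CPM with DMSO (log2 fold change −0.15 ± 0.11, edgeR adjusted p = 0.383), and Snhg17 had 13.6 ± 3.16 CPM with Sardomozide and 12.7 ± 1.98 CPM with DMSO (log2 fold change 0.10 ± 0.17, edgeR adjusted p = 0.757). Snhg18, Snhg16 (listed as 1810032O08Rik) and Snhg20 had log2 fold changes of −0.04, −0.03 and −0.10. Those of Snhg4 and Snhg7 were −0.21 and 0.20. The 3 least abundant tested, Dancr, Snhg14 and Snhg10, had log2 fold changes of −0.26, −0.12 and −0.52, with standard errors of 0.32, 0.47 and 0.59. Snhg9 and Snhg11 had too few counts to be tested.

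**Figure D4:**
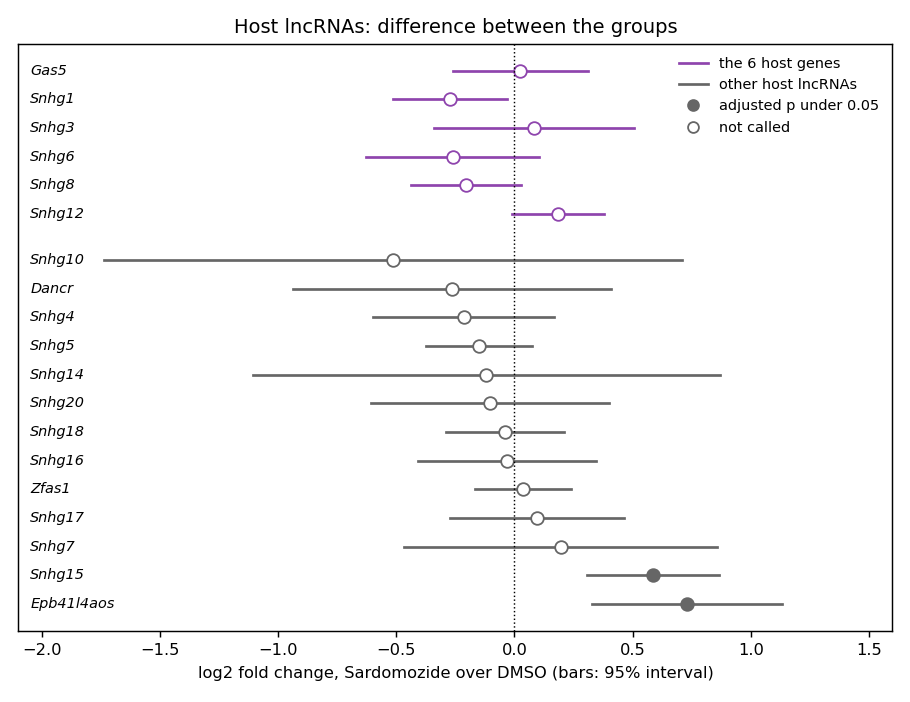
Log2 fold change, Sardomozide over DMSO, of the 6 host genes (purple) and 13 other host lncRNAs (grey), with 95% intervals from edgeR. Open circles are genes that were not called and filled circles genes with an adjusted p under 0.05: none of the 6 is filled, and Snhg15 and Epb41l4aos are.

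Transcripts of several proteins that bind snoRNAs and build their particles rose with Sardomozide. Of 18 tested genes of snoRNP proteins and assembly factors 6 rose, 0 fell and 12 did not pass (median log2 fold change 0.12, beside −0.0008 over all tested genes, of which 7.88% rose). Fbl, the methyltransferase of C/D particles, had 48.1, 46.5 and 48.8 CPM in Sardomozide libraries 1, 2 and 3, against 40.5, 37.7 and 39.1 CPM in DMSO libraries 1, 2 and 3 (log2 fold change 0.29 ± 0.058, edgeR adjusted p = 0.00159). Nop56, a core protein of the same particles, rose by 0.27 ± 0.051, and Dkc1, the pseudouridine synthase of H/ACA particles, by 0.31 ± 0.065 (edgeR adjusted p = 0.000992 and 0.00263). Nolc1, a nucleolar chaperone gene, rose by 0.21 ± 0.055 (edgeR adjusted p = 0.0147), a call that ended when Sardomozide replicate 1 (0.0674), DMSO replicate 2 (0.0733) or DMSO replicate 3 (0.0714) was left out. The count of rises was 4 or 5 whichever library was left out. This list, like the other lists, was chosen with earlier results of these data known, so its count is a description and no set test was run. Differences between these genes and the host lncRNAs were not tested.

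Of 43 tested protein-coding genes known in human or mouse to host snoRNAs, 7 rose, 1 fell and 35 did not pass, with a median log2 fold change of 0.03. The share called was close to the 16.3% of all tested genes, of which 7.88% rose and 8.45% fell. Hspa9, the mitochondrial chaperone mortalin, had 724 ± 31.6 CPM with Sardomozide and 568 ± 7.65 CPM with DMSO (log2 fold change 0.35 ± 0.044, edgeR adjusted p = 1.66e-05), and the ATP synthase gene Atp5b had 1744 ± 44.1 CPM with Sardomozide and 1451 ± 36.9 CPM with DMSO (log2 fold change 0.27 ± 0.044, edgeR adjusted p = 0.000256). Nop56 and Dkc1, described above, belong to this list as well, and Nop58 to both lists. Eif4g2, which encodes a translation initiation factor, was the 1 that fell (−0.20 ± 0.043, edgeR adjusted p = 0.00278). It was named after its values were seen, and 2 genes of the list fell when Sardomozide replicate 2 was left out.

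Among factors of nonsense-mediated decay, the pathway known to degrade spliced RNAs of several hosts, 5 of 20 rose, 0 fell and 15 did not pass (median log2 fold change 0.03), where 7.88% of all tested genes rose and 8.45% fell. Upf1, the helicase at the centre of the pathway, had 171, 162 and 176 CPM in Sardomozide libraries 1, 2 and 3, against 147, 142 and 144 CPM in DMSO libraries 1, 2 and 3. It rose without overlap (log2 fold change 0.23 ± 0.044, edgeR adjusted p = 0.000967), as did its partner Upf2 (log2 fold change 0.27 ± 0.055, edgeR adjusted p = 0.00187). Smg8, a regulator of the kinase SMG1, and the helicase gene Dhx34 rose as well (0.20 ± 0.061 and 0.31 ± 0.094, edgeR adjusted p = 0.027 and 0.0273). Leaving out Sardomozide replicate 1 (adjusted p = 0.087 for Smg8, 0.0906 for Dhx34) or DMSO replicate 1 (0.138 and 0.0856) ended both calls. Leaving out DMSO replicate 3 ended that of Smg8 (0.0783), and DMSO replicate 2 that of Dhx34 (0.166). The list had 2 rises without Sardomozide replicate 1 and 3 without any single DMSO library, and 1 fall without Sardomozide replicate 2 or 3. The counts give the level of these transcripts, not the activity of the pathway.

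Of 20 genes of mTORC1 and of control of pyrimidine-start mRNAs, 2 rose, 2 fell and 16 did not pass (median log2 fold change 0.02), a number of calls close to the background of 7.88% higher and 8.45% lower among all tested genes. Rptor, which encodes the mTORC1 scaffold raptor, rose (log2 fold change 0.16 ± 0.040, edgeR adjusted p = 0.00749), and so did Rheb, the GTPase that activates mTORC1 (log2 fold change 0.18 ± 0.052, edgeR adjusted p = 0.0203). Deptor, an inhibitor of mTOR, fell (−0.22 ± 0.044, edgeR adjusted p = 0.00193), as did Sesn1, an inhibitor upstream (−0.21 ± 0.062, edgeR adjusted p = 0.0211). Rptor was not called when DMSO replicate 3 was left out (adjusted p = 0.0507). Rheb was not called when Sardomozide replicate 2 (0.0856) or any single DMSO library (0.0526 to 0.0834) was left out, and Sesn1 when replicate 1 or 3 of either group was (0.0542 to 0.101). The list had 3 rises without Sardomozide replicate 1, 1 without replicate 2 of either group or DMSO replicate 1, and 0 without DMSO replicate 3. It had 1 fall when replicate 1 or 3 of either group was left out. Larp1, which binds the pyrimidine start itself, had a log2 fold change of 0.10 ± 0.041 (edgeR adjusted p = 0.103).

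**Figure D5:**
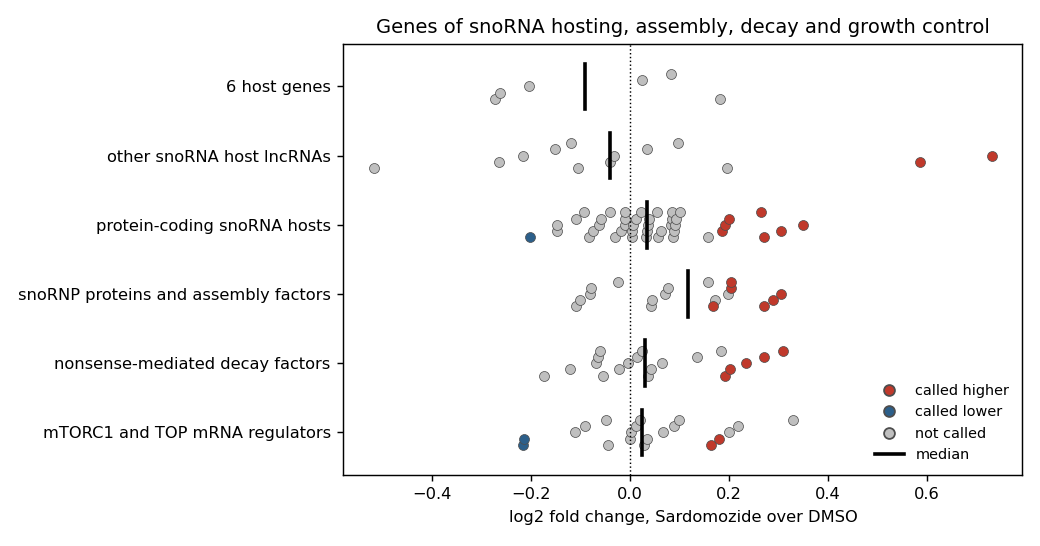
Log2 fold change, Sardomozide over DMSO, of every tested gene in the 6 host genes and 5 related lists (rows). Each point is a gene, red where called higher, blue where called lower and grey where not called, and the bar is the median of the row: the 6 host genes are all grey, and 6 of the 18 snoRNP genes are red.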

How the data were processed

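For each of the 6 libraries the authors deposited raw whole-number counts for 24411 gene symbols, with no summary lines. Per the labels' protocols, total RNA was purified on columns and sequenced as paired reads. Per the submitters' processing notes, the builds were GRCm38 and mm10 and the tools DESeq2, StringTie and STAR. Versions, roles, annotation, strand use and the handling of multiply mapped reads are not stated. Groups and replicate numbers were read from the sample titles.

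Genes were filtered with filterByExpr (minimum count 10, total 15), scaled by TMM and compared in edgeR 4.0.16 (R 4.3.3) by its quasi-likelihood test, two-sided and robust, with treatment as the only term, with Benjamini-Hochberg adjustment over all 13076 genes tested and calls at an adjusted p under 0.05. Errors after fold changes are SE from the fold change and F statistic. For counting error only, a 0 is compatible with as many as 3 counts, which is 0.0817 to 0.118 CPM by library total. CPM are TMM-scaled, except this limit and the marker sums. Older symbols were matched through RefSeq synonyms, and gene lengths came from GENCODE M21, which holds 23376 of the symbols. The steps were tested on simulated counts.

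The members, lists and naming rule were chosen with earlier results of these data known. Genes named were the 6 members, all tested host lncRNAs, up to 4 called genes per other list, flanking genes, and the 3 genes most like each member. One flanking gene is not reported here. Alternatives were scaling by RLE, by upper quartiles or by library totals alone, no filter, a stricter filter (5 CPM in 3 libraries), DESeq2 1.42.0, limma-voom (limma 3.58.1), estimation without robustness, the replicate number as a block, each library left out, and another gene length.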

Additional observations from a re-analysis of the deposited data

How the results depend on the processing

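No alternative run on all 6 libraries called any of the 6 host genes or turned the sign of an estimate. Leaving out 1 library moved them more: the log2 fold change ran from −0.11 to 0.17 for Gas5, from −0.082 to 0.18 for Snhg3, and from −0.40 to −0.16 for Snhg1, which was called once, without Sardomozide replicate 3, so that 0 to 1 of the 6 were called lower. The cause was not tested. The stricter filter removed Snhg3 and Snhg6, so they have no value there. Over the libraries left out, the numbers called ran from 620 to 927 (higher) and 706 to 1025 (lower) for all tested genes, from 1 to 2 (higher) for other host lncRNAs, from 1 to 2 (lower) for protein-coding hosts, from 2 to 5 (higher) and 0 to 1 (lower) for decay factors, and from 0 to 3 (higher) and 1 to 2 (lower) for mTORC1 genes. With the stricter filter 1 other host lncRNA rose and 1 decay factor fell. That filter removed Epb41l4aos, which had at most 4.19 CPM in a library, so it was not tested there. Without a filter 2 protein-coding hosts and 1 decay factor fell. Divided by the longest transcript, levels in Sardomozide and DMSO libraries were 11.6 and 11.4 CPM per kilobase for Gas5, 5.30 and 4.99 for Snhg3, 5.17 and 6.23 for Snhg6, 11.2 and 12.8 for Snhg8, and 10.96 and 9.64 for Snhg12, and 4.68 for Snhg1 in DMSO libraries.

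With the replicate number as a block, 1820 genes were called instead of 2135, Snhg1 had a log2 fold change of −0.28 (edgeR adjusted p = 0.117), none of the 6 was called and 2 protein-coding hosts fell. Libraries with the same number did not deviate together (correlations of 0.022, −0.023 and −0.018 across genes). Every correlation between a Sardomozide and a DMSO library was near 0 (−0.0496 to 0.0712), so which was largest carries no weight. The labels do not say if libraries with the same number were handled together, and these values cannot tell. Counts of 64 to 175 per library limit Snhg3 and Snhg6.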
